A study of Mus musculus with 12 samples.

Results

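Macrophages touch T cells through a small set of surface proteins that either help or hold back the T cell, and 10 of the genes that encode them or their partners were followed here: Cd40, Cd80, Cd86, Cd274, Pdcd1lg2, Icosl, Lgals9, Havcr2, Vsir and Cd200r1. They were taken by symbol from the 56748 genes of the count matrix, and each symbol matched 1 Ensembl gene. The cells were M2-like polarized BMDM, that is, macrophages grown from the bone marrow of female C57BL/6J mice with M-CSF at 20 ng/mL and then given IL4 at 10 ng/mL for 48 hours, which all 4 conditions shared. For the next 72 hours they were kept in unsupplemented medium (untreated control), in eGFP supernatant, in Ifnb1eGFP supernatant or with rIFNβ, with 3 libraries per condition, each from a separate mouse according to the series' design text. Supernatants came from YUMM5.2, a mouse melanoma cell line transduced with a lentiviral, tetracycline-responsive construct that carries either Ifnb1 and eGFP or eGFP alone. Both donor lines had been given Dox at 1 µg/mL for 72 hours. IFNβ in the Ifnb1eGFP supernatant was brought to 1500 pg/mL by dilution, which the eGFP supernatant received at the same ratio, and rIFNβ was used at an equivalent concentration. Age of the mice is not in the sample labels, and neither the labels nor the methods say whether IL4 stayed in the medium during the last 72 hours.

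A T cell that recognizes antigen needs a second, costimulatory signal. CD80 and CD86 give it by binding CD28, ICOS ligand by binding ICOS, while CD40 on the macrophage receives help from CD40 ligand on the T cell. PD-L1 (Cd274) and PD-L2 (Pdcd1lg2) bind PD-1 and dampen the T cell, galectin-9 (Lgals9) is one of the ligands described for TIM-3 (Havcr2), and VISTA (Vsir) and the CD200 receptor (Cd200r1) are inhibitory proteins of the myeloid cell itself. PD-L1 is a known target of interferon signaling, and PD-L2 is known to be induced by IL4 in macrophages.

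Library totals ran from 31526034 to 45348457 counts. Values are CPM, the counts of a gene relative to the TMM-scaled total of its library, given as mean ± SD of 3 libraries. Fold changes, their standard errors (SE) and adjusted p values are from edgeR's quasi-likelihood test, fitted over all 12 libraries and adjusted over the 15033 genes that passed a filter on low counts. Genes with an adjusted p of 0.05 or less were called. All 7 macrophage markers were detected in every condition. As condition means, Lyz2 was at 3472 to 12396 CPM, Adgre1 at 1496 to 1775, Itgam at 323 to 1620 and Cd68 at 1240 to 1750. Csf1r was at 1045 to 1145 CPM, Mertk at 112 to 158 and Fcgr1 at 52.6 to 1199. Arg1, a defining IL4-driven marker, was at 0.261 to 0.662 CPM. Of the other IL4-driven markers, Mrc1 was at 660 to 825 CPM, Chil3 at 72.8 to 128 CPM, Retnla at 55.2 to 63.4 CPM and Mgl2 at 3.32 to 4.87 CPM. Chil3 alone of these 5 was called with IFNβ, and it rose (log2 fold change 0.77 with Ifnb1eGFP against eGFP supernatant, adjusted p = 1.73e-05, and 0.67 with rIFNβ, adjusted p = 5.55e-05). Of other cell types, the summed markers of T cells reached at most 10.1 CPM in any library, of neutrophils 5.72, of dendritic cells 2.21, of B cells 1.63, of melanoma cells 0.81, of mast cells and basophils 0.657 and of NK cells 0.585. Cd3d, Cd3e and Cd3g had at most 1 count in any library, and most of the T cell sum was Cd4. Stromal and endothelial markers summed to 15.5 to 32.7 CPM, of which Col1a1 was the most abundant. One library stood apart: in eGFP supernatant replicate 2, the summed level of 10 interferon-stimulated genes was 938 CPM against 140 to 237 CPM in the other 5 libraries without IFNβ and 11390 to 12678 CPM in the 6 with it.

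**Figure D1:**
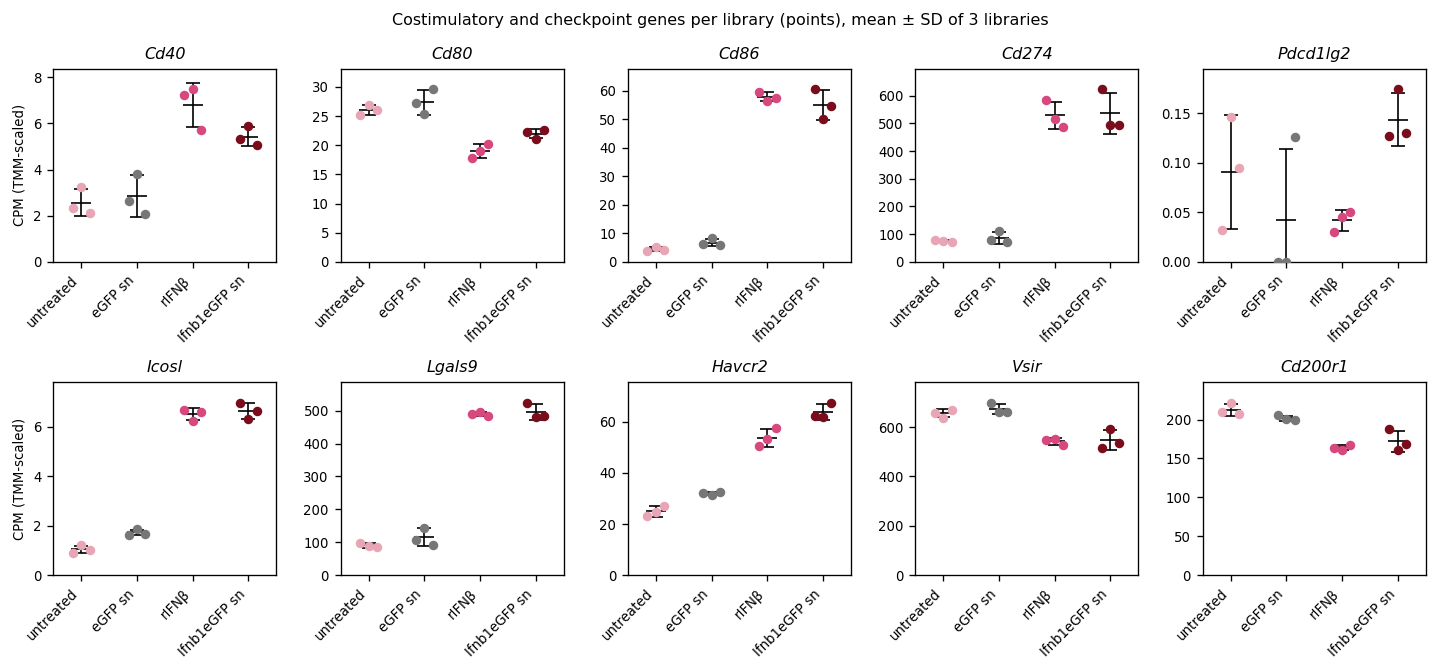
CPM (vertical axes, linear from 0, a scale for each gene) of the 10 genes in each of the 12 libraries (points, replicates 1 to 3 from left to right) by condition, with the mean and SD of 3 as bars; sn, supernatant. Cd86, Cd274, Icosl, Lgals9, Havcr2 and Cd40 are higher and Cd80, Vsir and Cd200r1 lower in both IFNβ-exposed conditions, while Pdcd1lg2 has at most 7 counts in a library.

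With IFNβ, genes of both kinds of signal moved together. Cd40, Cd86 and Icosl on the costimulatory side and Cd274, Lgals9 and Havcr2 on the checkpoint side rose, whereas Cd80, Vsir and Cd200r1 fell by less than any of these rises. This held for Ifnb1eGFP supernatant against eGFP supernatant and for rIFNβ against untreated control, which share no library. Of the 10 genes, 9 passed the filter and Pdcd1lg2 did not. In the first comparison 9 of 9 were called, 6 higher and 3 lower, where 55.1% of all genes tested were called (30.1% higher and 25% lower). In the second the count was again 9 of 9, 6 higher and 3 lower, against 55.3% of all genes (30.7% higher and 24.6% lower). As a description, the median log2 fold change of the 9 genes was 1.00 and 1.41, beside 0.03 and 0.04 over all genes, which the scaling holds near 0. Under the stricter limits that the study used, a log2 fold change of 2 or more in either direction with an adjusted p up to 0.01, 3 of the 9 were called higher and 0 lower with Ifnb1eGFP supernatant (Cd86, Cd274 and Lgals9), where 2.77% of all genes were higher and 2.62% lower. With rIFNβ 4 were called higher and 0 lower (those 3 and Icosl), where 2.99% of all genes were higher and 2.78% lower. The values of the 2 groups did not overlap for 9 of 9 genes in either comparison, against 59% and 66.1% of all genes. A difference in bulk RNA cannot tell a change in RNA per cell from a change in the share of cells that carry it.

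Cd274, which encodes PD-L1, was the most abundant of the PD-1 ligands. It was at 78.4, 75.4 and 71.9 CPM in the untreated libraries and at 80.0, 110 and 70.4 CPM with eGFP supernatant. It reached 583, 515 and 488 CPM with rIFNβ and 622, 494 and 493 CPM with Ifnb1eGFP supernatant. The lowest IFNβ-exposed library was thus more than 4 times the highest unexposed one, which was the library that stood apart. The log2 fold change was 2.63 (SE 0.16, adjusted p = 7.85e-08) for Ifnb1eGFP against eGFP supernatant and 2.81 (SE 0.16, adjusted p = 4.26e-08) for rIFNβ against untreated control. Without eGFP supernatant replicate 2 the first became 2.83 (adjusted p = 2.55e-08). Cd274 lies on chromosome 19 (GRCm39 29344529 to 29365495, plus strand), and an antisense lncRNA, Gm36043, overlaps its exons. Gm36043 also rose, from 3.87 to 11.6 CPM with Ifnb1eGFP against eGFP supernatant (log2 fold change 1.58, adjusted p = 0.00335). The kit marks strand, but the strand setting of the counting is not given in the sources used here, so reads of the pair may have been shared. Expected counts of Cd274 were not whole in 12 of 12 libraries, so some reads were divided with another gene. The counts name neither that gene nor the share, which leaves the level of Cd274 uncertain to that extent. The coding gene Plgrkt, which overlaps its 5′ end on the opposite strand, was at 41.9 and 43.1 CPM in the supernatant conditions (log2 fold change 0.04, adjusted p = 0.721). It was called higher with rIFNβ, at 43.8 CPM against 37.3 CPM in untreated control (0.23, adjusted p = 0.0495).

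Pdcd1lg2, the PD-L2 gene, was next to Cd274 on the same chromosome (29388319 to 29448882) and barely detected. Its counts were 1, 5 and 4 in the untreated libraries and 0, 0 and 5 with eGFP supernatant. They were 1, 2 and 2 with rIFNβ and 5, 7 and 6 with Ifnb1eGFP supernatant. The highest eGFP supernatant library and the lowest Ifnb1eGFP supernatant library each had 5 counts, and a count of 0 allows up to 3, which covers counting error only. With no filter on low counts, the log2 fold change was 1.69 with Ifnb1eGFP against eGFP supernatant (adjusted p = 0.196) and −1.07 with rIFNβ against untreated control (adjusted p = 0.542). A difference was therefore not detectable at this depth.

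Lgals9 encodes galectin-9, a sugar-binding protein that binds TIM-3 among other partners. Its 6 libraries with IFNβ were at 480 to 525 CPM. The untreated ones were at 99.0, 88.8 and 84.7 CPM, and those with eGFP supernatant at 107, 145 and 92.3 CPM. The groups were far apart, and the 145 CPM again belonged to eGFP supernatant replicate 2. The log2 fold change was 2.11 (SE 0.13, adjusted p = 1.36e-07) with Ifnb1eGFP supernatant and 2.43 (SE 0.14, adjusted p = 4.24e-08) with rIFNβ. It was 2.31 (adjusted p = 6.97e-09) for the supernatants without that library.

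Havcr2 encodes TIM-3, which restrains T cells and is also found on myeloid cells. It rose about as much with both sources of IFNβ. It was at 23, 24.5 and 27.2 CPM in untreated libraries and at 32.0, 31.5 and 32.4 CPM with eGFP supernatant. It was at 50.6, 53.2 and 57.6 CPM with rIFNβ and at 62.2, 61.9 and 67.5 CPM with Ifnb1eGFP supernatant. No condition overlapped another for this gene. The fold change was 2.00 (95% interval 1.80 to 2.21, adjusted p = 2.32e-07) between the supernatants and 2.16 (1.94 to 2.39, adjusted p = 9.84e-08) between rIFNβ and untreated control.

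Promoter windows of 300 bases, from 250 before to 50 after the RefSeq transcription start on GRCm38.p6, were at hand for 7 of the 10 genes (Cd80, Cd274, Pdcd1lg2, Icosl, Lgals9, Havcr2 and Vsir). They are printed for Lgals9 and Cd274, the pair of checkpoint genes with the largest rises, and for Pdcd1lg2, the neighbor of Cd274 that stayed near 0. Both strands were searched for the interferon-stimulated response element as GAAA and GAAA with any 2 bases between, the gamma-activated site as TTC and GAA with any 3 bases between, the STAT6 site as TTC and GAA with any 4 between, and the NF-kB site by name. Capitals mark the matches to the first 3 of these.
Lgals9 (chr11:78984875-78985174, minus strand): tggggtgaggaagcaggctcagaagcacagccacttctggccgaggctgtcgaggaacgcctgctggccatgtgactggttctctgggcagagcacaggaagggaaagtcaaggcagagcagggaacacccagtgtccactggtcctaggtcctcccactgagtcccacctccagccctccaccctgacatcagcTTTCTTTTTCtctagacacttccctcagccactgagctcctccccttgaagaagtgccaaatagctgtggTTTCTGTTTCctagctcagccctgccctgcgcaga
Cd274 (chr19:29367188-29367487, plus strand): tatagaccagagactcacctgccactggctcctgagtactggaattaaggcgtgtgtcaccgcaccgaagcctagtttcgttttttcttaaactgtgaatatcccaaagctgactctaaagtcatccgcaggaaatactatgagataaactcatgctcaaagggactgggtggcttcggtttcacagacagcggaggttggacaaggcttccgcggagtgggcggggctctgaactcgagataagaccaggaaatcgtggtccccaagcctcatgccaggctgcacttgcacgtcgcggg
Pdcd1lg2 (chr19:29410669-29410968, plus strand): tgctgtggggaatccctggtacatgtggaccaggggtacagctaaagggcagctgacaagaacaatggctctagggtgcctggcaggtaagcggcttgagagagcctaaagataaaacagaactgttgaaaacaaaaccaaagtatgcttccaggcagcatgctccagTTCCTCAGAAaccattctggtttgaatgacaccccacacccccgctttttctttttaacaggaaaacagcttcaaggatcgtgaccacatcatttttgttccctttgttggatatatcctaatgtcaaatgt
The response element was found in Lgals9, with 2 matches whose first bases lie at −55 and 16 from the start, and in none of the other 6 windows. It is held by 3.44% of all 32851 windows. No window of the 7 held the gamma-activated site (8.3% of all windows). Pdcd1lg2 held the STAT6 site at −82 (6.95% of all windows), and Pdcd1lg2 and Icosl each held a match to the NF-kB site (8.46%). A match is a run of letters, not a measured binding site, and no match says only that these letters are not in this window.

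Cd86 showed the largest change of the set. It encodes B7-2, a ligand of CD28 and CTLA-4, and is also one of the genes that the study itself displayed from these libraries, so that its direction is not independent evidence. It was at 3.85, 5.33 and 4.16 CPM in untreated libraries and at 6.19, 8.31 and 5.85 CPM with eGFP supernatant. With rIFNβ it was at 59.7, 56.6 and 57.5 CPM and with Ifnb1eGFP supernatant at 60.5, 50.1 and 54.8 CPM. Both IFNβ-exposed conditions overlapped each other and lay far above both unexposed ones. The fold change was 8.12 (95% interval 6.60 to 9.99, adjusted p = 9.41e-09) between the supernatants and 13.0 (10.5 to 16.2, adjusted p = 2.72e-09) between rIFNβ and untreated control.

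Cd80 encodes B7-1, the other ligand of CD28 and CTLA-4, and went the opposite way. It was at 25.2, 27.0 and 26.0 CPM in untreated libraries and at 27.3, 25.3 and 29.6 CPM with eGFP supernatant. It was at 17.8, 19.1 and 20.2 CPM with rIFNβ and at 22.3, 21.1 and 22.7 CPM with Ifnb1eGFP supernatant. Every IFNβ-exposed library was below every unexposed one. The log2 fold change was −0.31 (SE 0.07, adjusted p = 0.0021) between the supernatants and −0.45 (SE 0.07, adjusted p = 0.000155) for rIFNβ. Exons of Timmdc1 overlap those of Cd80 on the opposite strand. Timmdc1 was at 8.86 to 10.2 CPM as condition means and was not called in either comparison (adjusted p = 0.109 and 0.0894).

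Cd40, the receptor for CD40 ligand, was among the less abundant genes. It was at 2.32, 3.25 and 2.13 CPM in untreated libraries and at 2.65, 3.83 and 2.08 CPM with eGFP supernatant. It was at 7.24, 7.47 and 5.71 CPM with rIFNβ and at 5.31, 5.89 and 5.08 CPM with Ifnb1eGFP supernatant. These values rest on 73 to 332 counts per library, and every IFNβ-exposed library lay above every unexposed one. The fold change was 1.90 (95% interval 1.37 to 2.63, adjusted p = 0.00329) between the supernatants and 2.66 (1.91 to 3.70, adjusted p = 0.000182) for rIFNβ. Without eGFP supernatant replicate 2, the highest of its group, the log2 fold change between the supernatants went from 0.92 to 1.19 (adjusted p = 0.00057).

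Icosl, which encodes the ligand of ICOS, rose from the lowest level among the tested genes. It was at 0.89, 1.20 and 1.02 CPM in untreated libraries and at 1.64, 1.85 and 1.68 CPM with eGFP supernatant. It was at 6.68, 6.25 and 6.62 CPM with rIFNβ and at 6.98, 6.33 and 6.65 CPM with Ifnb1eGFP supernatant. The 2 IFNβ-exposed conditions overlapped, and the 2 unexposed ones did not. The fold change was 3.85 (95% interval 3.28 to 4.52, adjusted p = 3.96e-08) between the supernatants and 6.26 (5.27 to 7.44, adjusted p = 5.47e-09) for rIFNβ.

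Vsir and Cd200r1, which had the highest levels per length of the 10 genes in untreated cells, fell modestly. Vsir encodes VISTA, a relative of the B7 proteins that restrains T cells and myeloid cells. It was at 659, 638 and 670 CPM in untreated libraries, at 699, 661 and 661 CPM with eGFP supernatant, at 548, 553 and 527 CPM with rIFNβ and at 514, 594 and 536 CPM with Ifnb1eGFP supernatant. No IFNβ-exposed library reached an unexposed one. The log2 fold change was −0.30 (SE 0.05, adjusted p = 0.00071) between the supernatants and −0.27 (SE 0.05, adjusted p = 0.00125) for rIFNβ. The gene lies inside Cdh23 on the opposite strand, without overlap of exons, and Cdh23 fell from 2.42 to 0.534 CPM (log2 fold change −2.18, adjusted p = 7.02e-05) between the supernatants.

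Cd200r1 encodes the receptor through which CD200 restrains myeloid cells. It was at 210, 222 and 207 CPM in untreated libraries and at 205, 201 and 199 CPM with eGFP supernatant. It was at 163, 161 and 168 CPM with rIFNβ and at 187, 160 and 168 CPM with Ifnb1eGFP supernatant. The IFNβ-exposed libraries were below all the others. The log2 fold change was −0.23 (SE 0.05, adjusted p = 0.00405) between the supernatants and −0.37 (SE 0.05, adjusted p = 0.000127) for rIFNβ. Its expected counts were not whole in 12 of 12 libraries, and a related receptor gene, Cd200r4, was at 68.6 to 80.0 CPM, so its level is uncertain where reads match both. Its partner Cd200, the ligand, fell from 30.2 ± 4.37 to 7.98 ± 2.57 CPM between the supernatants (log2 fold change −1.92, SE 0.19, adjusted p = 6.02e-06).

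**Figure D2:**
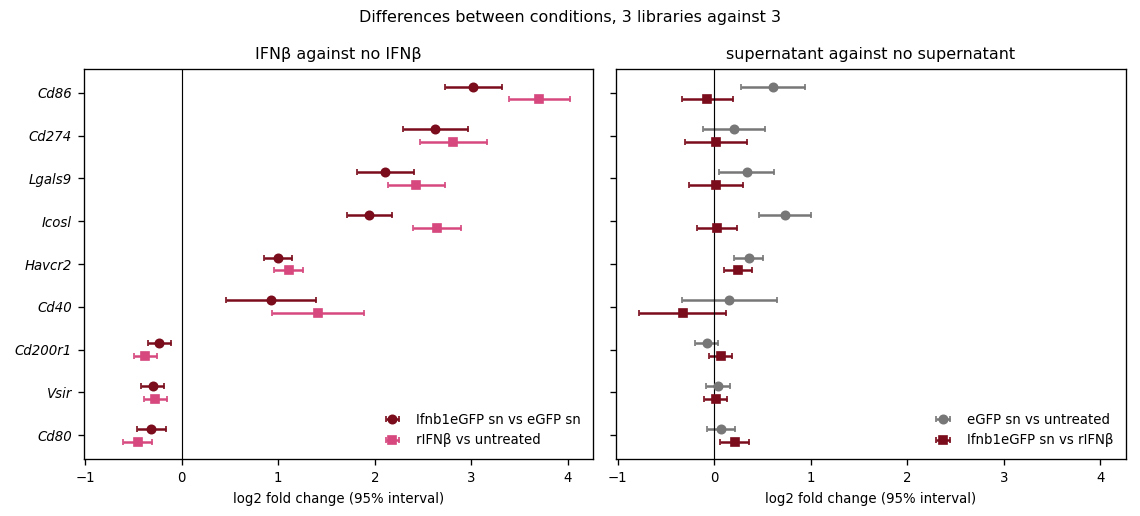
Log2 fold change with its 95% interval (horizontal axes) for the 9 genes tested, with IFNβ against none on the left and supernatant against none on the right, 3 libraries against 3 in each. On the left 6 intervals per comparison lie above 0 and 3 below, from −0.45 to 3.70 as fitted values, and on the right the fitted values lie between −0.33 and 0.73.

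With supernatant but no IFNβ, 1 of the 9 genes tested was called. Icosl, the ICOS ligand gene, was higher with eGFP supernatant than in untreated control by 1.66-fold (95% interval 1.38 to 2.00, adjusted p = 0.0323), with no overlap of its libraries. It was the 1 gene called of 9, where 0.299% of all genes were called. The groups did not overlap for 4 of 9 genes (Cd86, Icosl and Havcr2 higher, Cd200r1 lower), against 15.5% of all genes. Levels of Icosl rest on 28 to 76 counts per library. The call was lost when any of 5 of the 6 libraries was left out (adjusted p 0.087 to 0.18, 0.18 without eGFP supernatant replicate 2) and kept without untreated control replicate 2 (0.0378). The log2 fold change, 0.73 with all libraries, ranged from 0.64 to 0.85 over these 6 fits. It was also lost when only these 2 conditions were fitted (adjusted p = 0.199). Havcr2 was 1.28-fold higher (95% interval 1.16 to 1.42, adjusted p = 0.0709) and Cd86 1.53-fold higher (1.22 to 1.92, adjusted p = 0.174). Both were called by DESeq2 (adjusted p = 0.00263 and 0.00961) and by edgeR with no filter on low counts (adjusted p = 0.0239 and 0.025). With the filter and no block for the replicate number, edgeR called neither, be it with all libraries or without eGFP supernatant replicate 2. There the log2 fold change of Havcr2 went from 0.36 to 0.37 (adjusted p = 0.225) and that of Cd86 from 0.61 to 0.44 (adjusted p = 0.506). For Cd274 the log2 fold change of 0.21 (adjusted p = 0.861) became 0.00 without that library, and for Lgals9 0.34 (adjusted p = 0.506) became 0.14. In that library Cd40, Cd86, Cd274, Icosl and Lgals9 were the highest of their group, beside its raised interferon-stimulated genes, whereas Havcr2 was the lowest (31.5 CPM against 32.0 and 32.4 CPM). The part of the interferon-stimulated genes in these values was not tested.

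Between the 2 sources of IFNβ, 0 of 9 genes were called by edgeR, where 0.16% of all genes were, and 2 had an unadjusted p under 0.05 (8.57% of all genes). DESeq2 also called 0. Havcr2 was 1.19-fold higher with Ifnb1eGFP supernatant than with rIFNβ (95% interval 1.07 to 1.31, adjusted p = 0.34) and Cd80 1.16-fold (1.04 to 1.28, adjusted p = 0.459), both without overlap of libraries. For 2 of 9 genes the groups did not overlap, against 12.8% of all genes. For the genes that rose most the intervals of the fold change were 0.793 to 1.14 for Cd86, 0.813 to 1.27 for Cd274, 0.833 to 1.23 for Lgals9 and 0.882 to 1.18 for Icosl. For Cd40 the interval was 0.584 to 1.09.

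Averaged over both states of IFNβ, supernatant was tied to higher Havcr2 (1.23-fold, 95% interval 1.15 to 1.33, adjusted p = 0.0142) and Icosl (1.3-fold, 1.16 to 1.47, adjusted p = 0.0475). These were 2 of 9 genes, where 0.905% of all genes were called. Icosl lost its call when any of 10 of the 12 libraries was left out. Havcr2 lost it without rIFNβ replicate 1 (adjusted p = 0.0522) and without untreated control replicate 2 (0.0547). An interaction term asked whether IFNβ raised a gene by a different amount in supernatant than in plain medium. It called 0 of 9 genes with edgeR and 0 with DESeq2, where 0% of all genes were called, and 2 genes had an unadjusted p under 0.05 (4.4% of all genes). For Icosl the rise was smaller with supernatant by 0.70 on the log2 scale (interaction −0.70, SE 0.15, adjusted p = 0.67) and for Cd86 by 0.68 (interaction −0.68, SE 0.19, adjusted p = 0.926). These contrasts reuse the same 12 libraries, so they are not separate support for each other.

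Levels of different genes were compared per length, as CPM per kb of exons. In untreated control the order from highest to lowest was Vsir (131 CPM per kb), Cd200r1 (63.5), Lgals9 (40.0), Cd274 (18.4), Cd80 (6.31), Havcr2 (5.11), Cd86 (1.16), Cd40 (0.753), Icosl (0.224) and Pdcd1lg2 (0.0398), with no overlap between neighbors. With rIFNβ, Lgals9 (216 CPM per kb) and Cd274 (130) stood above Vsir (108) and Cd200r1 (48.9). Cd86 (15.1) and Havcr2 (11) stood above Cd80 (4.60), followed by Cd40 (2.00), Icosl (1.41) and Pdcd1lg2 (0.0183), again without overlap of neighbors. The order was the same with Ifnb1eGFP supernatant as with rIFNβ, but there the libraries of Cd86 and Havcr2 overlapped, as did those of Cd40 and Icosl. With eGFP supernatant the order was that of untreated control, with overlap of Cd200r1 and Lgals9 and of Cd80 and Havcr2. When the longest transcript was used as the length, Cd40 and Icosl changed places in both IFNβ-exposed conditions and no other rank moved.

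**Figure D3:**
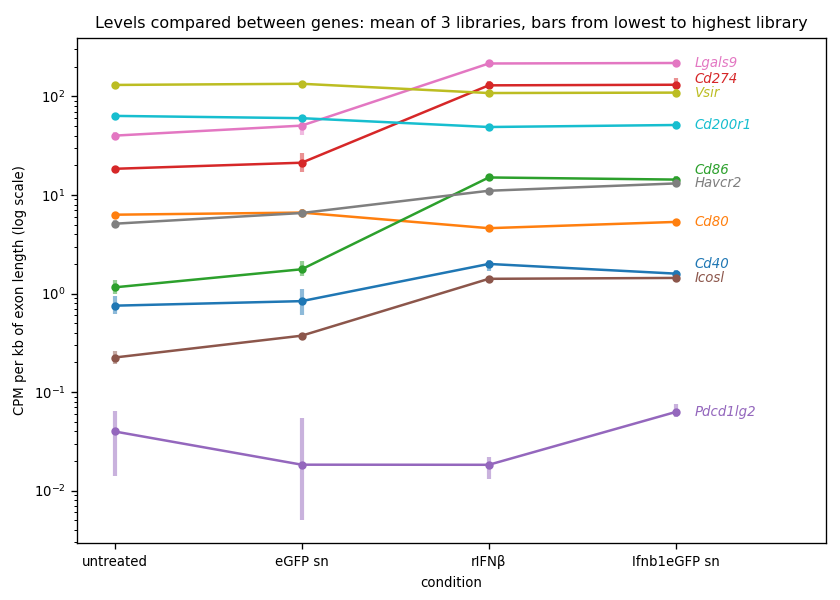
Mean CPM per kb of exon length of 3 libraries (vertical axis, log scale) for each of the 10 genes in the 4 conditions, with bars from the lowest to the highest library; the bar of Pdcd1lg2 with eGFP supernatant is cut at 0.005 because 2 of its libraries are at 0. Lgals9 and Cd274 cross above Vsir and Cd86 above Cd80 in the IFNβ-exposed conditions.

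The genes that encode the pair of CD28 ligands thus changed places. The ratio of Cd80 to Cd86, each per kb, had a median of 5.81 (range 4.72 to 6.10) in untreated libraries and 4.10 (2.84 to 4.71) with eGFP supernatant. It had a median of 0.314 (0.277 to 0.327) with rIFNβ and 0.385 (0.344 to 0.392) with Ifnb1eGFP supernatant. Cd80 transcripts were in excess in every unexposed library and Cd86 transcripts in every exposed one. Their sum, chosen after the values were seen, was 7.46 ± 0.419 CPM per kb in untreated control, 8.39 ± 0.252 with eGFP supernatant, 19.7 ± 0.294 with rIFNβ and 19.7 ± 1.5 with Ifnb1eGFP supernatant. Cd274 over this sum was 2.48 ± 0.202, 2.54 ± 0.643, 6.59 ± 0.591 and 6.67 ± 0.548 in the same order, so that the PD-L1 transcript rose by more than the sum of the CD28 ligand transcripts. It rose by less than Cd86 alone (fold change 6.18 against 8.12 between the supernatants and 7.03 against 13.0 with rIFNβ). The ratio of Lgals9 to Havcr2 had a median of 7.78 (6.69 to 9.24) in untreated libraries, 7.20 (6.11 to 9.87) with eGFP supernatant, 20.0 (18.1 to 20.8) with rIFNβ and 16.6 (15.4 to 18.1) with Ifnb1eGFP supernatant. RNA ratios say nothing of protein at the surface.

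**Figure D4:**
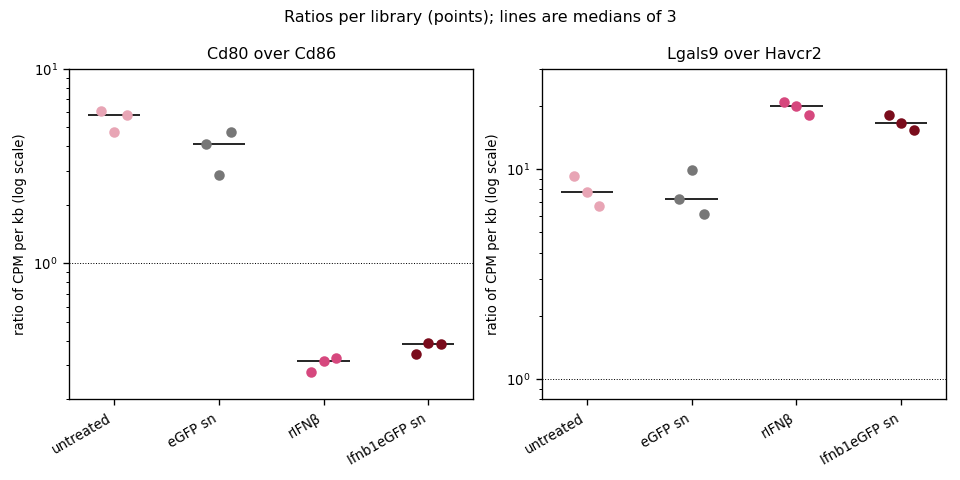
Ratio of CPM per kb (vertical axes, log scale) of Cd80 to Cd86 on the left and of Lgals9 to Havcr2 on the right in each library (points), with the median of 3 as a line; the dotted line marks a ratio of 1. Cd80 over Cd86 lies between 2.84 and 6.10 without IFNβ and between 0.277 and 0.392 with it.

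Lists of related genes are described by counts, which were not tested as groups and stand beside 30.1% of all genes higher and 25% lower between the supernatants and 30.7% and 24.6% with rIFNβ. Of 10 other costimulatory ligands, 9 were tested, and 4 were higher and 2 lower with Ifnb1eGFP against eGFP supernatant, with a median log2 fold change of 0.31. With rIFNβ 3 were higher and 1 lower, with a median of 0.07. The largest rises between the supernatants were in TNF superfamily ligands at under 1.5 CPM: Tnfsf15 (log2 fold change 1.60, adjusted p = 0.00949), Tnfsf18 (1.60, adjusted p = 8.43e-05) and Tnfsf14 (1.41, adjusted p = 0.000527). Tnfsf15 was not called with rIFNβ (adjusted p = 0.0713). Of the abundant genes, chosen after their values were seen, the adhesion ligand gene Icam1 fell from 67.6 ± 3.60 to 46.7 ± 4.16 CPM (log2 fold change −0.53, adjusted p = 2.18e-05). Cd48 rose from 122 ± 6.27 to 152 ± 15.1 CPM (0.31, adjusted p = 0.00191).

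Among other inhibitory ligands, 3 were higher and 3 lower of 8 tested (14 listed) in both IFNβ comparisons, with medians of 0.05 and −0.15. Cd276, which encodes B7-H3, fell from 39.1 ± 1.88 to 7.71 ± 1.17 CPM between the supernatants (log2 fold change −2.34, SE 0.11, adjusted p = 9.32e-09). It fell from 35.1 ± 2.44 to 7.61 ± 0.723 CPM with rIFNβ against untreated control (adjusted p = 1.31e-08). H2-T23, which encodes Qa-1, a ligand of the inhibitory receptor NKG2A, rose from 128 ± 21.3 to 573 ± 107 CPM (2.16, SE 0.14, adjusted p = 2.19e-07). Tnfrsf14, which encodes HVEM, the ligand of BTLA, rose from 5.53 ± 0.584 to 10.2 ± 0.642 CPM (0.88, adjusted p = 7.57e-06).

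Most T cell partners of the set were near 0. Ctla4, Pdcd1, Icos and Cd40lg had at most 1, 4, 13 and 0 counts in any library. Cd28, the receptor of CD80 and CD86, was the exception at 101 ± 8.22 CPM in untreated control, 117 ± 4.55 with eGFP supernatant, 86.9 ± 5.57 with rIFNβ and 102 ± 2.44 with Ifnb1eGFP supernatant. In the same libraries Cd3e had at most 1 count. Cd28 was lower with IFNβ in both comparisons (log2 fold change −0.21 and −0.21, adjusted p = 0.016 and 0.0154). Among 6 other partners, 2 were higher and 2 lower. Beside Cd200, these included P4hb, described as a partner of galectin-9 (log2 fold change −0.45, adjusted p = 4.1e-06), and Rgmb, a partner of PD-L2 (0.46, adjusted p = 0.000426).

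**Figure D5:**
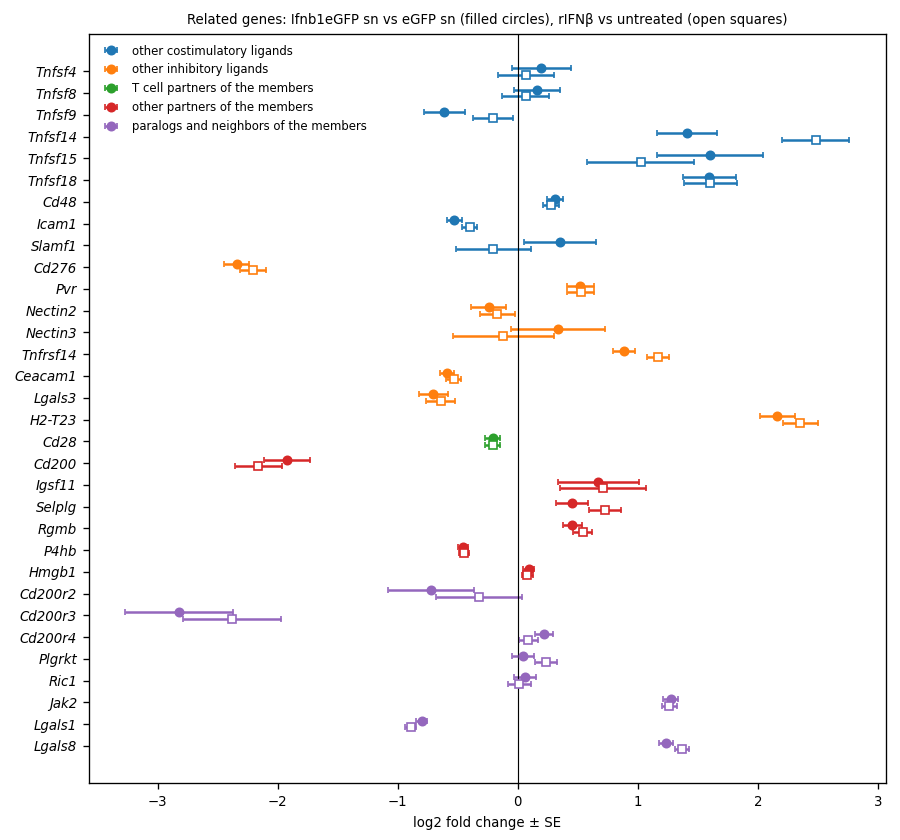
Log2 fold change ± SE (horizontal axis) of the tested genes related to the set, colored by list, for Ifnb1eGFP against eGFP supernatant (filled circles) and rIFNβ against untreated control (open squares), 3 libraries against 3. Cd276, Cd200 and Cd200r3 lie farthest to the left (−1.92 or lower) in both comparisons, and H2-T23 (2.16 and 2.35) and, with rIFNβ, Tnfsf14 (2.48) farthest to the right.

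Of paralogs and chromosomal neighbors, 3 were higher and 2 lower of 8 tested (11 listed) between the supernatants. Near Cd274, the kinase gene Jak2 rose from 40.2 ± 1.44 to 97.2 ± 9.34 CPM (log2 fold change 1.27, adjusted p = 2.45e-08), whereas Ric1 stayed at 39.7 ± 2.90 and 41.4 ± 3.13 CPM (adjusted p = 0.627). The galectin gene Lgals8 rose with Lgals9 (1.23, adjusted p = 1.72e-08). The more abundant galectin genes Lgals1 and Lgals3, picked with their values known, fell between the supernatants. Lgals1 went from 1247 to 715 CPM (−0.80, adjusted p = 5.32e-08) and Lgals3 from 4997 to 3066 CPM (−0.70, adjusted p = 0.000416). Cd200r3, at 0.804 CPM or less in the supernatant conditions, fell (−2.82, adjusted p = 0.000244).

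Of 10 genes that carry the CD40 signal, 6 were higher and 1 lower in both IFNβ comparisons, with medians of 0.35 and 0.49 and the shares over all genes as above. Traf1 (log2 fold change 1.39, adjusted p = 0.000693) and Birc2 (0.98, adjusted p = 2.04e-06), which encode proteins of the receptor complex, rose most between the supernatants, and Traf5 fell (−0.85, adjusted p = 4.62e-06). Of 10 transcription factor genes known to act on the set, 7 were higher and 2 lower in both comparisons, with medians of 0.71 and 0.71. Stat2 (log2 fold change 3.08, adjusted p = 4.93e-06) and Irf1 (1.71, adjusted p = 1.63e-06) were among those that rose between the supernatants. Marker levels also moved with IFNβ. Macrophage markers summed to 14122 to 18457 CPM without and 9648 to 10581 CPM with IFNβ, with 4 higher and 2 lower of 7 in both comparisons. Lyz2 (log2 fold change −1.59 between the supernatants, adjusted p = 8.27e-10) and Itgam (−1.99, adjusted p = 1.25e-10) were the lower ones. Adgre1, Cd68, Mertk and Fcgr1 were higher, and Csf1r was not called in either comparison. The dendritic cell sum was 1.75 to 2.21 CPM without and 0.546 to 0.985 CPM with IFNβ, and the neutrophil sum 4.28 to 5.72 and 0.208 to 0.985 CPM. Flt3 and Ly6g, which define these cells, had at most 1 and 3 counts in any library. S100a8 and Zbtb46 were the most abundant neutrophil and dendritic cell markers without IFNβ. The T cell sum was 4.49 to 5.56 CPM without and 8.36 to 10.1 CPM with IFNβ, nearly all Cd4 (log2 fold change 1.11 between the supernatants, adjusted p = 2.34e-06). The B cell sum, mostly Cd79b, was 0.604 to 0.804 and 1.17 to 1.63 CPM, and the NK cell sum, led by Klrb1c without IFNβ, 0.223 to 0.585 and 0 to 0.0675 CPM. The stromal and endothelial sum was 15.5 to 32.7 and 16.9 to 20.6 CPM, within which Col1a1 fell (−1.03) and Pdgfra (1.67) and Pecam1 (1.49) rose between the supernatants (adjusted p = 0.0105, 0.00175 and 0.000362). The part of these markers in the changes of the set was not tested.

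Across the 12 libraries, the genes most like each member by Pearson's r of log2 CPM are given as a description, since all points share the 4 conditions and most genes followed IFNβ. Lgals9 was closest to Parp9, Tcstv4 and Irgm2 (r at least 0.999) and Cd274 to Nt5c3, Dtx3l and Phf11b (0.999). Cd86 was closest to Terf1, Gbp4 and Cd300lf (0.998 to 0.999) and Icosl to BE692007, Cela1 and Ms4a6b (0.995). For Havcr2 they were B4galt1, Sh3bgrl2 and Cxcl16 (0.993 to 0.995), and for Cd40 Csrp1, Ccl4 and Qsox2 (0.970 to 0.985). Among the genes that fell, Cd80 was closest to Ccdc47, Cd44 and Pcgf6 (0.975 to 0.983), Vsir to Itgb5, Atp6v0b and Gpr146 (0.984 to 0.992) and Cd200r1 to Dynlt2b, Bcap29 and Ccdc50 (0.982 to 0.984). Within the set, Cd274 and Lgals9 were the most alike (r = 0.997), while Cd80 and Vsir, which both fell, had an r of 0.798.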

How the data were processed

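Total RNA libraries (TruSeq Stranded Total RNA) of 12 BMDM samples were quantified by the authors with RSEM 1.3.3, and the deposited values are expected counts per Ensembl gene, not normalized. The submitters' notes name the builds GRCm39 and mm10 together, and the strand setting of the counting is not given in the sources used here. Columns were assigned by their sample descriptions, and 0 were left over. RSEM divides reads that match several genes, so 12% of values were not whole, and all were rounded before testing.

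Counts were analyzed in R 4.3.3 with edgeR 4.0.16: filterByExpr (15033 genes kept), TMM factors, 1 quasi-likelihood model over 12 libraries without a replicate block, and Benjamini-Hochberg adjustment over all genes tested. SE is the size of the log2 fold change divided by the square root of F. Exact permutation tests were not run, since 0.1 is the smallest p they can reach for 3 libraries against 3. p values measure the spread between these libraries. CPM per kb used exon lengths of GENCODE M39 on GRCm39. Library totals of 31526034 to 45348457 set the depth.

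The members and lists were chosen with earlier results of these data known. The text names every member, the 3 genes with the largest change among those called between the supernatants in each list of related genes (every gene of the T cell partner and IL4-driven lists, which hold 5), the most abundant marker of cell types whose level it follows, and the 3 genes most like each member. All 7 macrophage markers are named too. Apart from overlapping genes and genes named as absent or as checks, any other gene is marked as picked with its values known. A gene that this rule would name is not reported here. On simulated counts for Ifnb1eGFP against eGFP supernatant (15033 genes), 75.8% of genes changed by 1 on the log2 scale and 94.9% of those changed by 2 were called. Only 99 and 98 tested genes carried these changes, whereas 55.1% of genes were called in the data, and no smaller change was simulated. Libraries of 1 condition differed by more than counting error (chi-square per degree of freedom 5.34 to 54.0). Alternatives were DESeq2 1.42.0, RLE factors, library totals alone, no filter, a replicate block, the study's thresholds, only the compared conditions and each library left out in turn.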

Additional observations from a re-analysis of the deposited data

How the results depend on the processing

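For the 9 tested genes, every log2 fold change with Ifnb1eGFP against eGFP supernatant and with rIFNβ against untreated control kept its direction and its call in all 12 refits of each comparison (DESeq2, RLE factors, library totals alone, no filter, the replicate block, only the compared conditions, and each library left out). Over the 9 genes these are 108 values per comparison. The study's thresholds lowered the counts to 3 (3 higher and 0 lower) and 4 (4 higher and 0 lower). For eGFP supernatant against untreated control, the 1 call (higher) became 3 without the filter and with DESeq2, 0 when only these conditions were fitted and at the study's thresholds, and 0 to 1 with a library left out. For the pooled supernatant contrast the 2 calls (higher) became 1 with RLE factors, library totals alone and no filter, 0 at the study's thresholds and 0 to 2 with a library left out. Libraries of the same number in different conditions deviated together at a mean r of 0.148 (0.0582 to 0.252, over 0.1 in 13 of 18 pairs), against −0.0742 for different numbers (over 0.1 in 1 of 36). Since 5 of the 18 were not over 0.1 and the labels name no shared batch, the numbers were not treated as pairs, although all 18 were positive. Deviations from a condition mean cancel within the condition, so the r for different numbers is tied to that for the same number. With the replicate number as a block the counts were 9, 9, 0, 2 (Icosl and Havcr2), 1 (Havcr2) and 0 for the 6 contrasts in the order first reported (IFNβ by supernatant, rIFNβ, source of IFNβ, eGFP supernatant, pooled supernatant, interaction). Small uncalled values changed sign. In the pooled contrast Cd200r1 (−0.0046) became 0.0023 with RLE factors, 0.0143 without the filter and 0.0018 with DESeq2. With a library left out, the pooled contrast ranged from −0.0364 to 0.0196 for Cd200r1, −0.22 to 0.0184 for Cd40 and −0.00402 to 0.0487 for Vsir. Against rIFNβ, Ifnb1eGFP supernatant ranged from −0.0962 to 0.0967 for Cd274, −0.000630 to 0.0652 for Icosl, −0.0216 to 0.0407 for Lgals9 and −0.0470 to 0.0609 for Vsir. The interaction ranged from −0.314 to 0.0208 for Cd274 and −0.0860 to 0.0243 for Vsir, and eGFP supernatant against untreated control from −0.11 to 0.36 for Cd40, the lowest without eGFP supernatant replicate 2. The cause was not tested. Depth limits Pdcd1lg2 (at most 7 counts per library).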
